A study of Mus musculus with 9 samples.

Results

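Solute carriers are membrane proteins that move sugars, amino acids, ions, metals, nucleotides and other small molecules across the plasma membrane and the membranes of organelles. The genes described here are from the FPKM table (read fragments relative to transcript length and library size). Their symbols begin with Slc, a family number, the letter a and a member number, or with Slco. They reached at least 1 FPKM in at least 3 of the 9 libraries. Solute carriers with another letter, such as Slc35 subfamilies b to g, do not match. The table held 333 matching symbols among 18423 genes, of which 185 passed the level and 148 did not. By name 11 symbols were left out, 10 of which had passed. That left 175 genes, 174 of them annotated as protein coding, which were sorted by the substrate each family is best known for. The selection used levels only and no difference between genotypes, but a gene that passed through one group alone could not do so without being higher there.

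The libraries were made from glands of the mouse stomach corpus, the acid-secreting body of the stomach. Arid1a_Het mice were Atp4bCre; Rosa26NICD; Arid1aflox/+, Ctrl mice were Atp4bCre; Rosa26NICD, and WT mice were wild type, with 3 libraries per group. Rosa26NICD expresses the active, intracellular part of the Notch receptor after Cre has acted, Atp4b is the gene of a subunit of the parietal cell proton pump whose promoter drives Cre, and the Arid1aflox/+ mice carry one allele of the chromatin remodelling gene Arid1a that the same Cre can delete. Arid1a_Het and Ctrl mice therefore share Cre and the Notch allele, and no group with Cre alone, the Notch allele alone or the Arid1a allele alone was analysed here. The tumour-bearing part of the corpus, or the matching place in a normal stomach, was incubated in EDTA, and the glands were scraped off. Whether each library stands for its own animal is not said in the labels, and if it does not, the p-values measure a spread that may be technical.

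In the stomach, parietal cells secrete acid with a proton pump and depend on exchangers of sodium, chloride, bicarbonate and potassium at their other membranes, and they are densely packed with mitochondria, whose inner membrane carriers supply nucleotides, phosphate and fuels. Several amino acid exchangers of the SLC7 family work in pairs with a heavy chain encoded by Slc3a2. Most SLC5 and SLC6 carriers draw on the sodium gradient, and most SLC2 carriers let sugars pass down their gradients. Several SLC16 carriers move monocarboxylates, and SLC39 and SLC30 carriers bring zinc into the cytosol and out of it.

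The libraries held 22651385 to 29478481 reads in the table's genes. Arid1a was at 8.94, 5.90 and 6.96 FPKM in Arid1a_Het, against 14.9, 13.3 and 16.2 FPKM in Ctrl and 13.5, 7.79 and 11.97 FPKM in WT, and its difference between Arid1a_Het and Ctrl did not pass the test (log2 fold change -0.95, adjusted p = 0.299). Notch1 stood at 6.59 to 8.17 FPKM in Arid1a_Het and 7.10 to 8.37 FPKM in Ctrl, against 1.83 to 3.59 FPKM in WT. The summed parietal cell markers (10 genes tested, 4 lower in Ctrl, none at 0 in any library) came to 2941 to 15909 RPM (reads scaled to the library's total) in Arid1a_Het, 2290 to 4629 in Ctrl and 8927 to 40837 in WT. The 9 leukocyte markers summed to 352 to 709 RPM in Arid1a_Het, 368 to 560 in Ctrl and 51.4 to 131 in WT, and the 5 markers of neck cells and metaplasia to 10804 to 27875 RPM in Arid1a_Het, with 17046 to 23913 in Ctrl and 5264 to 8607 in WT. Of the 7 leukocyte markers tested, 4 were higher in Ctrl than in WT (log2 fold changes of the 7 from -0.07 to 4.62). Of the 5 neck and metaplasia markers, 3 were higher (from -0.09 to 3.91), so a higher sum does not mean that every marker rose. Cd79a, a B cell marker, was at 0 in Arid1a_Het 1. Pancreas markers summed to 1511 RPM in Arid1a_Het 3 and 3831 RPM in Ctrl 1, and to between 1.99 and 20.9 RPM in every other library, where the pancreatic enzyme gene Cpa1 was at 0. Squamous forestomach markers (4 genes tested, 1 higher in Ctrl) summed to 179 to 704 RPM in Arid1a_Het, 217 to 582 in Ctrl and 39.9 to 582 in WT, with overlap. Within the groups their sum was highest in Arid1a_Het 3, Ctrl 3 and WT 1. Chief cell markers (4 genes tested, none called between Ctrl and WT) summed to 9895 to 114041 RPM in Arid1a_Het. They came to 7727 to 26568 in Ctrl and 16645 to 115631 in WT, with overlap. Pit cell markers summed to 46300 to 80210 RPM in Arid1a_Het, 37196 to 47324 in Ctrl and 74020 to 100610 in WT, with 2 of 5 genes lower in Ctrl. Endocrine markers (4 of 6 lower in Ctrl) summed to 87.4 to 299, 100.9 to 228 and 706 to 1009 RPM in Arid1a_Het, Ctrl and WT, and tuft markers (2 of 4 lower) to 31.2 to 31.9, 37.3 to 74.1 and 92.02 to 149.7 RPM. The parietal, pit, endocrine and tuft sums were lower in Ctrl than in WT and the leukocyte and neck sums higher, without overlap, and in whole glands fewer cells of a type and less RNA per cell cannot be told apart. Their part in the differences below was not tested.

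Averaged over the 9 libraries, 4 genes reached 100 FPKM, 71 lay between 10 and 100 and 100 lay below 10, with a median of 7.81 FPKM. The highest was Slc25a5, an ADP/ATP carrier of the mitochondrial inner membrane, at 249 FPKM. Slc25a3, the mitochondrial phosphate carrier, followed at 135 FPKM, then Slc5a5, the sodium/iodide symporter, at 134 FPKM and Slc25a1, the mitochondrial citrate carrier, at 105 FPKM. Below them came Slc39a11, a zinc transporter, at 96.7 FPKM, Slc44a4, a carrier of the choline transporter family, at 90.9 FPKM, and Slc9a3r1, which encodes a scaffold that binds the exchanger Slc9a3 and is no transporter, at 90.4 FPKM. The corpus glands expressed mitochondrial carriers, an iodide symporter and zinc carriers at the top of this family. Within a group, the median coefficient of variation of a gene was 20.1% in Arid1a_Het, 15.3% in Ctrl and 19.02% in WT libraries.

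Of the 175 genes, 142 reached 1 FPKM in all 9 libraries and 167 in at least 1 library of each group. Slc4a11, Slc10a2, Slc11a1, Slc15a3 and Slc29a2 did so in Arid1a_Het and Ctrl libraries alone, Slc2a5 in WT libraries alone, and Slc38a3 and Slc8a1 in Arid1a_Het and WT libraries. Ranked by their third-highest library, the genes just inside the limit were Slc46a1 at 1.02 FPKM, Slc15a3 at 1.05, Slc12a4 at 1.06, Slc25a40 at 1.09 and Slc8a1 at 1.14. Just outside stood Slc15a2 at 0.977 FPKM, Slc38a6 at 0.970, Slc41a3 at 0.898, Slc27a3 at 0.818 and Slc22a21 at 0.772. Of the 148 symbols below the limit, 70 stayed under 0.1 FPKM in every library and 21 reached 1 FPKM in at least 1.

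The first comparison asks what differs between glands with the active Notch allele and normal glands. Between Ctrl and WT, 10 of the 175 genes rose, 16 fell and 149 did not pass the test (limma on log2(FPKM + 1), Benjamini-Hochberg adjusted p below 0.05 over all 11209 genes tested). That is 5.71% higher, beside 7.01% of all genes tested, and 9.14% lower, beside 3.04% of all genes tested. The median log2 fold change was 0.01 over the 175 genes and 0.24 over all genes tested. With libraries scaled by median ratios the median of all genes became 0.01 and that of the solute carriers -0.24, and the split became 4 higher and 21 lower, beside 5.42% and 5.24% of all genes. Summed over the 175 genes, levels came to 12558 to 12862 RPM in Arid1a_Het, 11694 to 12384 in Ctrl and 13704 to 14984 in WT, without overlap between the groups. Among the 167 genes that reached 1 FPKM in each group, 8 rose and 15 fell. Higher genes were carriers of amino acids, bile acids, magnesium, zinc and iron, among others. With median-ratio scaling the carriers of magnesium, zinc and iron (Slc41a1, Slc30a1 and Slc25a28) were not called. The same held for the amino acid carrier Slc7a5 and for Slc25a17 and Slc25a45. Lower genes were carriers of neutral amino acids, magnesium, iodide, sodium and protons, sugars, monocarboxylates, prostaglandins and, in mitochondria, adenine nucleotides and acylcarnitine. With the replicate number as a block over all 9 libraries, 25 rose and 23 fell, beside 16.1% and 5.97% of all genes. They held all 26 genes above. The labels give no such pairing. Leaving out the 2 libraries with pancreas markers gave 8 higher and 7 lower genes, beside 4.83% and 1.48% of all genes, and only 5 of the higher and 7 of the lower were among the 26.

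**Figure D1:**
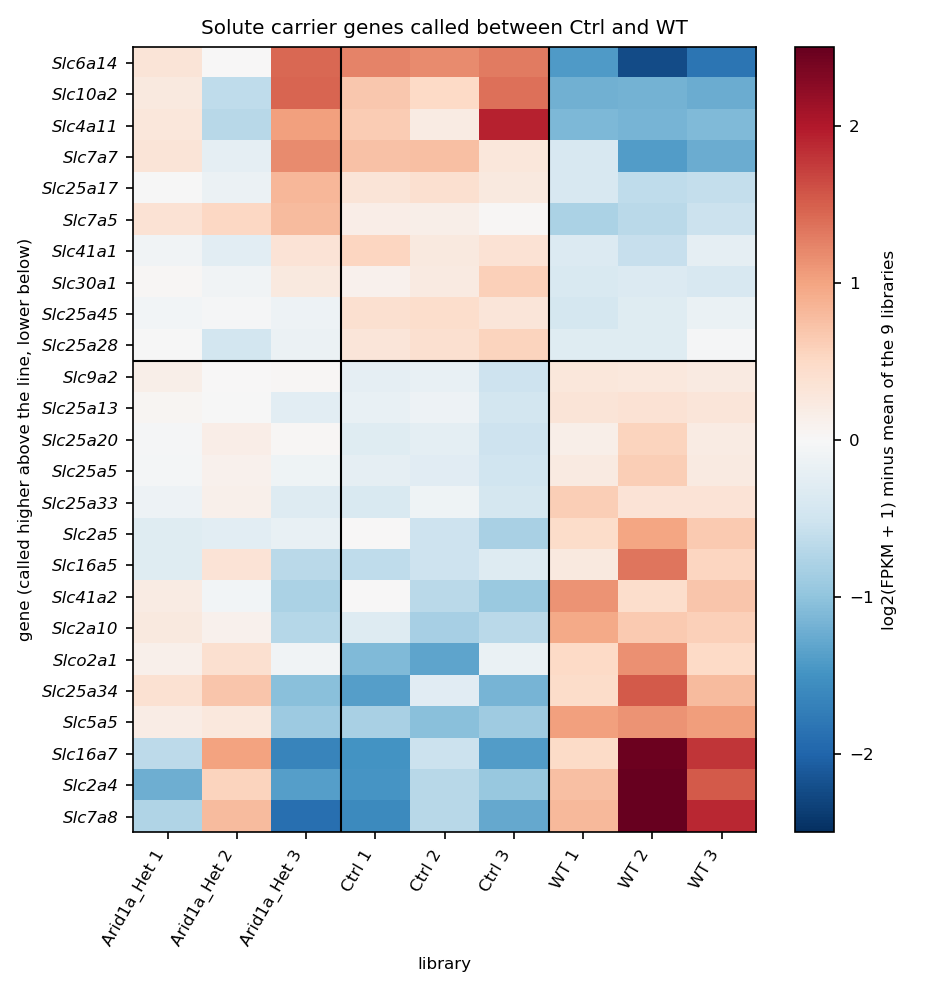
Heat map of 25 of the 26 solute carrier genes called between Ctrl and WT, one column per library and one row per gene, colored by log2(FPKM + 1) minus the gene's mean over the 9 libraries. The 10 higher genes stand above the line and 15 lower ones below, and library 2 of a group is often the highest of its group among the lower genes.

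Among the 16 lower genes, 11 were highest within WT in WT 2 and the other 5 in WT 1, 10 were highest within Arid1a_Het in Arid1a_Het 2, and 9 were highest within Ctrl in Ctrl 2. The parietal sum had the same order in part, at 5596, 15909 and 2941 RPM in Arid1a_Het 1, 2 and 3, against 2290, 4629 and 3856 in Ctrl and 8927, 40837 and 18619 in WT. Of the 10 higher genes, 8 were highest within Arid1a_Het in Arid1a_Het 3. Over all 175 genes, 79 were highest within Arid1a_Het in Arid1a_Het 3 and 50 in Arid1a_Het 2. Within WT, 70 of the 175 were highest in WT 1 and 56 in WT 2, and within Ctrl 49 were highest in Ctrl 2. When libraries were left out in turn, which leaves 2 in a group, 24 of the 26 calls were lost in at least 1 of the 9 fits, while Slc6a14 and Slc5a5 were called in each. Without Ctrl 1, Ctrl 2 or Ctrl 3, 1, 2 and 1 genes were higher and 4, 1 and 2 lower. Without WT 1, WT 2 or WT 3 the counts were 8, 4 and 3 higher and 14, 2 and 3 lower. Leaving out Arid1a_Het 1, 2 or 3 gave 7, 15 and 17 higher and 13, 19 and 17 lower. Over all genes tested the calls, 1127 with every library, came to 400, 400 and 260 without Ctrl 1, 2 or 3, to 1044, 400 and 414 without WT 1, 2 or 3, and to 944, 1465 and 1389 without Arid1a_Het 1, 2 or 3.

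**Figure D2:**
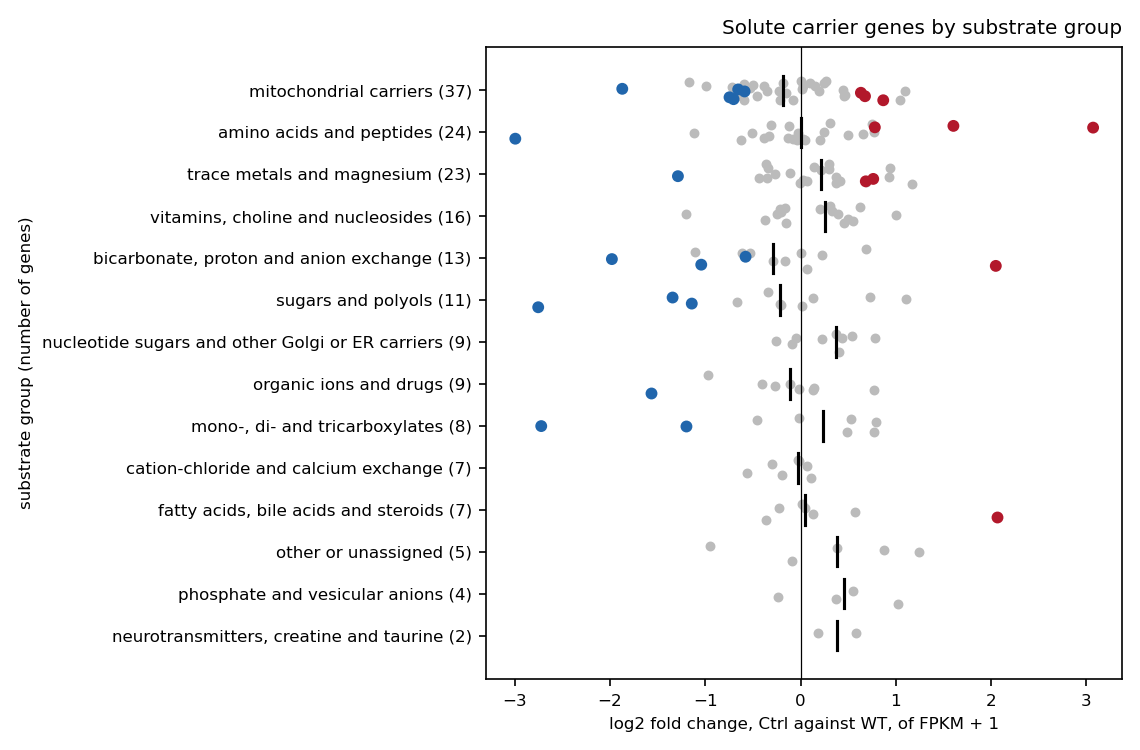
Log2 fold change of FPKM + 1, Ctrl against WT, for each of the 175 genes by substrate group, with group sizes in brackets and a black bar at each group's median. Red points were called higher, blue lower and grey neither, and mitochondrial carriers, the largest group, hold both colors.

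Amino acid and peptide carriers held 3 higher genes (12.5%) and 1 lower one (4.17%) among 24, beside 7.01% and 3.04% of all genes tested. Their median log2 fold change was 0.00. Slc6a14, a sodium- and chloride-driven importer of neutral and cationic amino acids, showed the largest rise of the family on the log2(FPKM + 1) scale, while by voom Slc10a2 and Slc4a11, which had few reads in WT, rose more. It stood at 6.52, 5.03 and 15.3 FPKM in Arid1a_Het, 13.2, 12.6 and 13.9 FPKM in Ctrl and 1.25, 0.277 and 0.689 FPKM in WT. Every Ctrl library exceeded every WT library several-fold, and the Arid1a_Het libraries were spread around the Ctrl values. Against WT, its log2 fold change was 3.07 (SE 0.35, adjusted p = 0.00203) in Ctrl. The mean was 17.9-fold that of WT, and between 25 and 1532 reads per library lay behind these values. The 250 bases before its start on the plus strand, at chrX:21714650-21714899 of GRCm38.p6 (RefSeq), hold 1 match to the AP-1 motif TGANTCA, which begins 82 bases before the start and is in capitals. This gene's call between Ctrl and WT held under every setting, as did that of Slc5a5, whose window is not shown. Each window shown here was picked together with a motif that matches in it.

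Slc6a14: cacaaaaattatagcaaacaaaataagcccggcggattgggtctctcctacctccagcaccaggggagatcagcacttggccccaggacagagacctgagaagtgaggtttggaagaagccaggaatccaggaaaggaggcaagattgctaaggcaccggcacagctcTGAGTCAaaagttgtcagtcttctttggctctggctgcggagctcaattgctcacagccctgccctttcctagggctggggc

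Slc7a5, the light chain of an exchanger of large neutral amino acids that pairs with Slc3a2, was at 15.9, 17.6 and 21.6 FPKM in Arid1a_Het, 13.7, 13.5 and 12.4 FPKM in Ctrl and 6.596, 7.24 and 8.02 FPKM in WT. The Ctrl libraries sat close together and above WT, and the Arid1a_Het libraries were higher still. Slc7a5 had a Ctrl against WT log2 fold change of 0.78 (SE 0.15, adjusted p = 0.0169). Leaving out Ctrl 1, Ctrl 2 or Ctrl 3 (adjusted p 0.0542 to 0.0672) ended the call. Slc7a5 also missed the threshold with median-ratio scaling and without the pancreas libraries (adjusted p 0.0556 to 0.0699). Slc7a7, the light chain of an exchanger of cationic amino acids, was at 5.64, 3.55 and 10.97 FPKM in Arid1a_Het, 7.81, 7.94 and 5.46 FPKM in Ctrl and 3.03, 1.004 and 1.24 FPKM in WT. All Ctrl libraries exceeded all WT libraries. Set Ctrl against WT, Slc7a7 changed by a log2 value of 1.60 (SE 0.37, adjusted p = 0.0292). Slc7a7 was no longer called without Ctrl 1, Ctrl 2, Ctrl 3, WT 2 or WT 3 (adjusted p 0.07599 to 0.0999). Slc7a7 also missed the threshold with no filter on low values (adjusted p = 0.06600). The gene overlaps Oxa1l, also in the table, by 232 bases on the other strand, and how strand was used in counting is not given in the sources used here.

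Slc7a8, another light chain for neutral amino acids, moved the other way. It was at 5.05, 16.6 and 1.76 FPKM in Arid1a_Het, 2.36, 5.27 and 3.17 FPKM in Ctrl and 16.8, 65.7 and 36.4 FPKM in WT. WT 2 was the highest library, and all Ctrl libraries were below all WT libraries, with Arid1a_Het 3 lower still. Library 2 was the highest of each group, as for the parietal and chief cell marker sums. Its Ctrl against WT log2 fold change was -2.99 (SE 0.66, adjusted p = 0.0244). The call was lost without Ctrl 1, Ctrl 2, Ctrl 3, WT 2 or WT 3 (adjusted p 0.0532 to 0.0925). Slc7a8 also missed the threshold with no filter on low values (adjusted p = 0.0592). The heavy chain of all 3, Slc3a2, was at 31.1, 43.7 and 32.3 FPKM in Arid1a_Het, 21.5, 28.2 and 32.6 FPKM in Ctrl and 28.2, 66.98 and 39.4 FPKM in WT, and Ctrl and WT overlapped. Slc38a2, a sodium-coupled importer of neutral amino acids and among the highest of the group, was at 47.5, 37.5 and 46.5 FPKM in Arid1a_Het, 57.8, 47.4 and 70.3 FPKM in Ctrl and 55.4, 48.9 and 46.6 FPKM in WT, again with overlap. With the replicate block, Slc7a6 (adjusted p = 0.0171) and Slc38a1 (adjusted p = 0.0168) also rose and Slc38a3 (adjusted p = 0.0188) also fell. These 3 were named after their values were seen.

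Carriers of protons, bicarbonate and anions held 1 higher (7.69%) and 3 lower genes (23.1%) among 13, beside 7.01% and 3.04% of all genes tested. Their median was -0.29, and the group includes the symporter Slc5a5, which is no exchanger. Slc5a5 brings iodide into cells and is known from the thyroid and the gastric mucosa. It was at 128, 134 and 59.3 FPKM in Arid1a_Het, 63.3, 54.03 and 59.7 FPKM in Ctrl and 230.2, 245 and 230.5 FPKM in WT. WT libraries agreed closely and lay far above Ctrl, and Arid1a_Het 1 and 2 lay between, with Arid1a_Het 3 at the Ctrl level. In Ctrl against WT the log2 fold change was -1.98 (SE 0.28, adjusted p = 0.00479). The call held under all 16 alternative settings, with adjusted p up to 0.0280.

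Slc9a2, a sodium/proton exchanger of epithelia, was at 31.5, 28.5 and 28.9 FPKM in Arid1a_Het, 24.2, 24.8 and 19.5 FPKM in Ctrl and 35.1, 34.4 and 33.7 FPKM in WT, and the 3 groups did not overlap. Slc9a2 had a Ctrl against WT log2 fold change of -0.58 (SE 0.13, adjusted p = 0.0286). Leaving out Ctrl 1, Ctrl 2, Ctrl 3, WT 1, WT 2 or WT 3 (adjusted p 0.0579 to 0.0888) ended the call. Slc9a2 also missed the threshold without the pancreas libraries (adjusted p = 0.0869). Slc9a4, the exchanger of the parietal cell's basolateral membrane, averaged 79.2 FPKM in Arid1a_Het, 71.3 FPKM in Ctrl and 87.3 FPKM in WT, and its difference did not pass (log2 fold change -0.29, adjusted p = 0.242).

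Slc4a11, a plasma membrane transporter of the bicarbonate carrier family, was the higher gene of the group. It was at 1.74, 0.4101 and 3.63 FPKM in Arid1a_Het, 2.52, 1.600 and 7.61 FPKM in Ctrl and 0.0431, 0.007600 and 0.0603 FPKM in WT. Read counts were 249, 58 and 528 for Arid1a_Het, 286, 236 and 1028 for Ctrl, with 5, 1 and 7 for WT, so the gene was near the limit of detection in WT. Set Ctrl against WT, Slc4a11 changed by a log2 value of 2.05 (SE 0.49, adjusted p = 0.0323). The scale of FPKM + 1 understates the change of so low a gene, and voom on the reads gave 6.602, a value that depends on the prior count at so few WT reads. Slc4a11 was no longer called without Ctrl 1, Ctrl 3, WT 1, WT 2 or WT 3 (adjusted p 0.0592 to 0.103). Slc4a11 also missed the threshold with no filter on low values (adjusted p = 0.0695). It passed the level filter through Arid1a_Het and Ctrl libraries alone.

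**Figure D3:**
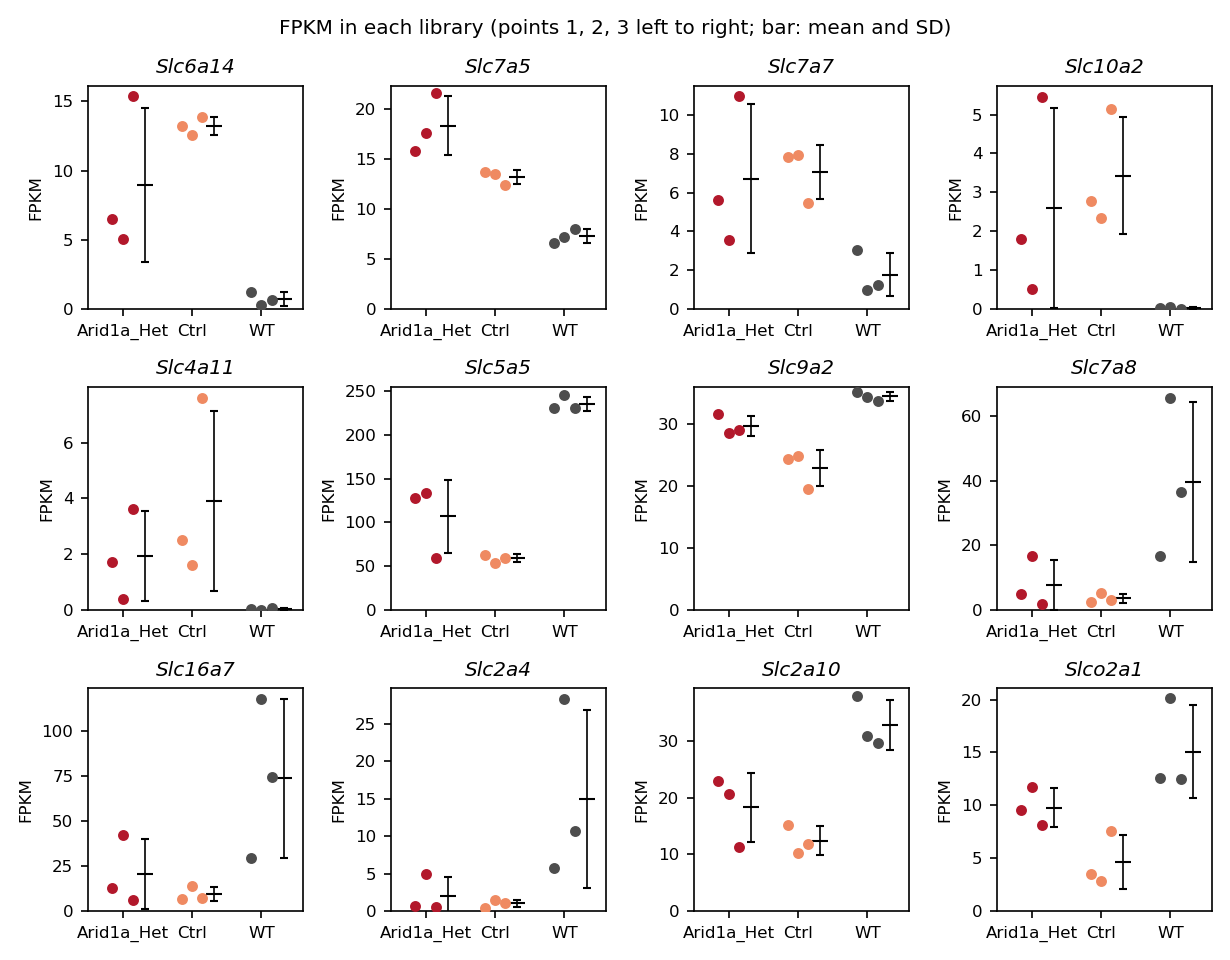
FPKM of 12 solute carrier genes in each library, linear axes from 0, with points for libraries 1, 2 and 3 from left to right and the group mean and SD as bars. Slc6a14, Slc7a5 and Slc7a7 are low in WT, and Slc5a5, Slc7a8 and Slc16a7 are high there.

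Sugar and polyol carriers held 3 lower genes (27.3%, beside 3.04% of all genes tested) and no higher one among 11. No gene was higher at an unadjusted p below 0.05 or by voom either, and the median was -0.22. Voom called 2 lower. Slc2a4, the insulin-responsive glucose transporter of muscle and fat, was at 0.733, 4.94 and 0.564 FPKM in Arid1a_Het, 0.456, 1.501 and 1.096 FPKM in Ctrl and 5.78, 28.4 and 10.7 FPKM in WT. Library 2 was again the highest in every group, and Ctrl did not overlap WT. Its Ctrl against WT log2 fold change was -2.75 (SE 0.61, adjusted p = 0.0245). This call did not hold without Ctrl 1, Ctrl 2, Ctrl 3, WT 2 or WT 3 (adjusted p 0.0567 to 0.0863). Slc2a4 also missed the threshold with no filter on low values, by voom and without the pancreas libraries (adjusted p 0.0512 to 0.0711). Slc2a10, a facilitative transporter of the same family, was at 22.9, 20.6 and 11.3 FPKM in Arid1a_Het, 15.2, 10.3 and 11.8 FPKM in Ctrl and 37.9, 30.9 and 29.6 FPKM in WT. The WT libraries all exceeded the Ctrl libraries by a wide gap. Against WT, its log2 fold change was -1.34 (SE 0.26, adjusted p = 0.01597) in Ctrl. Leaving out Ctrl 2 or Ctrl 3 (adjusted p 0.0553 to 0.0681) ended the call. Slc2a5, the fructose transporter, was at 0.605, 0.654 and 0.738 FPKM in Arid1a_Het, 0.985, 0.379 and 0.131 FPKM in Ctrl and 1.72, 2.94 and 2.100 FPKM in WT. It passed the level filter through WT libraries alone. Slc2a5 had a Ctrl against WT log2 fold change of -1.14 (SE 0.23, adjusted p = 0.0195). By voom on the reads it was -2.61. Slc2a5 was no longer called without Ctrl 2, Ctrl 3, WT 2 or WT 3 (adjusted p 0.05702 to 0.0751). Slc45a3, a sugar transporter family member and the highest of the group, was at 70.2, 56.2 and 62.2 FPKM in Arid1a_Het, 50.2, 45.8 and 75.8 FPKM in Ctrl and 62.2, 63.2 and 42.9 FPKM in WT, and Ctrl and WT overlapped.

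Carriers of mono-, di- and tricarboxylates held 2 lower genes among 8. The group's median was 0.23, close to that of all genes tested. Slc16a7, a high-affinity carrier of pyruvate and lactate, was at 12.8, 42.4 and 5.92 FPKM in Arid1a_Het, 6.72, 13.9 and 7.25 FPKM in Ctrl and 29.4, 118 and 74.3 FPKM in WT. Within each group the order of the libraries was that of the parietal and chief cell sums, with library 2 on top. Which cells this order belongs to was not tested. Set Ctrl against WT, Slc16a7 changed by a log2 value of -2.72 (SE 0.67, adjusted p = 0.0358). The call was lost without Ctrl 1, Ctrl 2, Ctrl 3, WT 2 or WT 3 (adjusted p 0.0615 to 0.127). Slc16a7 also missed the threshold with no filter on low values and without the pancreas libraries (adjusted p 0.0634 to 0.0769). Slc16a5, of the same family, was at 8.26, 13.5 and 6.22 FPKM in Arid1a_Het, 6.35, 6.98 and 8.21 FPKM in Ctrl and 12.5, 27.97 and 15.6 FPKM in WT. Ctrl lay below WT without overlap. Its Ctrl against WT log2 fold change was -1.20 (SE 0.32, adjusted p = 0.0452). Leaving out Arid1a_Het 1, Ctrl 1, Ctrl 2, Ctrl 3, WT 2 or WT 3 (adjusted p 0.0636 to 0.127) ended the call. Slc16a5 also missed the threshold with no filter on low values, with median-ratio scaling, by voom and without the pancreas libraries (adjusted p 0.0535 to 0.1099). Slc16a11 and Slc16a13 lie 371 bases apart and are monocarboxylate carrier family members. Slc16a11 was at 1.98, 2.23 and 2.73 FPKM in Arid1a_Het, 3.11, 3.21 and 3.69 FPKM in Ctrl and 2.12, 0.773 and 1.92 FPKM in WT. Slc16a13 was at 3.76, 3.07 and 6.203 FPKM in Arid1a_Het, 4.65, 4.47 and 4.21 FPKM in Ctrl and 2.75, 1.55 and 2.22 FPKM in WT. Neither passed the test (adjusted p = 0.0600 and 0.0602, log2 fold changes 0.78 and 0.80), but with the replicate block both did (adjusted p = 0.0354 for Slc16a11 and 0.0343 for Slc16a13).

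Mitochondrial carriers, the SLC25 family, made up 37 of the 175 genes, with a median of -0.19. Of the 37, 3 rose (8.11%) and 5 fell (13.5%), beside 7.01% and 3.04% of all genes tested. The 3 that rose were not called with median-ratio scaling, voom called 1 higher and 4 lower, and the replicate block 5 and 9. Summed, they came to 2901 to 3100 RPM in Arid1a_Het, 2390 to 2775 in Ctrl and 3207 to 4049 in WT. Slc25a5, the ADP/ATP carrier already named as the highest, was at 234, 262 and 225 FPKM in Arid1a_Het, 207, 198 and 171 FPKM in Ctrl and 284, 375 and 285 FPKM in WT. All Ctrl libraries were below all WT libraries, and Arid1a_Het lay between. In Ctrl against WT the log2 fold change was -0.70 (SE 0.16, adjusted p = 0.0288). Slc25a5 was no longer called without Ctrl 1, Ctrl 2, Ctrl 3, WT 2 or WT 3 (adjusted p 0.0628 to 0.102). Slc25a5 also missed the threshold without the pancreas libraries (adjusted p = 0.07396).

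Slc25a34, a carrier of the same family, was at 4.37, 5.65 and 0.992 FPKM in Arid1a_Het, 0.578, 2.399 and 0.845 FPKM in Ctrl and 4.64, 10.98 and 6.16 FPKM in WT. Ctrl 1 and Ctrl 3 were under 1 FPKM. Slc25a34 had a Ctrl against WT log2 fold change of -1.87 (SE 0.48, adjusted p = 0.0414). This call did not hold without Arid1a_Het 1, Ctrl 1, Ctrl 2, Ctrl 3, WT 2 or WT 3 (adjusted p 0.0532 to 0.142). Slc25a34 also missed the threshold with no filter on low values, with median-ratio scaling and by voom (adjusted p 0.0509 to 0.0845). The gene fell most among mitochondrial carriers, and its promoter is shown for its match to the ERR motif. The 250 bases before its start on the minus strand, at chr4:141623835-141624084 of GRCm38.p6 (RefSeq), hold 1 match to the ERR motif AAGGTCA, on the opposite strand and 119 bases before the start, in capitals.

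Slc25a34: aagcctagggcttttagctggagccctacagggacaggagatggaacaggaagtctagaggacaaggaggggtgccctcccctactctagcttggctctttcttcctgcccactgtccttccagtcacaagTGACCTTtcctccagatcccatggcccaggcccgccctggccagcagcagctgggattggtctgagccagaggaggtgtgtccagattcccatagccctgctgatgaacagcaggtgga

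Slc25a33, a pyrimidine nucleotide carrier, was at 7.16, 8.63 and 6.05 FPKM in Arid1a_Het, 5.77, 7.203 and 5.51 FPKM in Ctrl and 12.5, 10.2 and 10.2 FPKM in WT. Every Ctrl library was below every WT library. Set Ctrl against WT, Slc25a33 changed by a log2 value of -0.75 (SE 0.17, adjusted p = 0.0289). Leaving out Ctrl 1, Ctrl 2, Ctrl 3, WT 1, WT 2 or WT 3 (adjusted p 0.05299 to 0.107) ended the call. Slc25a33 also missed the threshold without the pancreas libraries (adjusted p = 0.0991). Slc25a20, which brings acylcarnitine into mitochondria for fat oxidation, and Slc25a13, the aspartate/glutamate carrier, also fell, with smaller changes, and were named after their values were seen. Slc25a20 was at 10.9, 12.7 and 11.4 FPKM in Arid1a_Het, 8.81, 9.24 and 7.46 FPKM in Ctrl and 12.3, 16.7 and 13.01 FPKM in WT. Its Ctrl against WT log2 fold change was -0.65 (SE 0.16, adjusted p = 0.0334). Slc25a20 was no longer called without Ctrl 1, Ctrl 2, Ctrl 3, WT 2 or WT 3 (adjusted p 0.0685 to 0.117). Slc25a20 also missed the threshold with only these 2 groups in the fit and without the pancreas libraries (adjusted p 0.0511 to 0.111). Slc25a13 was at 14.02, 13.5 and 11.2 FPKM in Arid1a_Het, 11.8, 12.4 and 9.61 FPKM in Ctrl and 17.2, 17.9 and 17 FPKM in WT. Against WT, its log2 fold change was -0.59 (SE 0.15, adjusted p = 0.0378) in Ctrl. The call was lost without Arid1a_Het 1, Ctrl 1, Ctrl 2, Ctrl 3, WT 1, WT 2 or WT 3 (adjusted p 0.0533 to 0.122). Slc25a13 also missed the threshold without the pancreas libraries (adjusted p = 0.0972). Neither gene had a Ctrl library above the lowest WT library.

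Among the risers, Slc25a17, a family member found in peroxisomes, was at 57.03, 51.8 and 103 FPKM in Arid1a_Het, 72.4, 76.5 and 68.9 FPKM in Ctrl and 43.7, 36.6 and 37.96 FPKM in WT. Ctrl was nearly uniform and above WT, and Arid1a_Het 3 was the highest of all. Slc25a17 had a Ctrl against WT log2 fold change of 0.87 (SE 0.23, adjusted p = 0.0477). Leaving out Arid1a_Het 1, Ctrl 1, Ctrl 2, Ctrl 3, WT 1, WT 2 or WT 3 (adjusted p 0.0585 to 0.133) ended the call. Slc25a17 also missed the threshold with no filter on low values, with median-ratio scaling and by voom (adjusted p 0.05697 to 0.101). Slc25a28, the second mitoferrin, which carries iron into mitochondria, was at 15.6, 11.2 and 13.95 FPKM in Arid1a_Het, 19.5, 20.8 and 23.5 FPKM in Ctrl and 12.5, 12.4 and 15.2 FPKM in WT. Set Ctrl against WT, Slc25a28 changed by a log2 value of 0.63 (SE 0.16, adjusted p = 0.0403). Slc25a28 was no longer called without Ctrl 1, Ctrl 2, Ctrl 3, WT 1, WT 2 or WT 3 (adjusted p 0.0626 to 0.135). Slc25a28 also missed the threshold with no filter on low values, with median-ratio scaling, by voom and without the pancreas libraries (adjusted p 0.0532 to 0.104). Slc25a45 was at 3.37, 3.44 and 3.15 FPKM in Arid1a_Het, 4.98, 5.17 and 4.61 FPKM in Ctrl and 2.36, 2.71 and 3.07 FPKM in WT. Its Arid1a_Het libraries were all below Ctrl and all above WT. Its Ctrl against WT log2 fold change was 0.68 (SE 0.14, adjusted p = 0.0226). This call did not hold without Ctrl 1, Ctrl 2, Ctrl 3 or WT 1 (adjusted p 0.0556 to 0.0837). Slc25a45 also missed the threshold with median-ratio scaling and without the pancreas libraries (adjusted p 0.0769 to 0.1003).

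Slc25a3, the phosphate carrier, was at 115, 144 and 118 FPKM in Arid1a_Het, 112, 115 and 102 FPKM in Ctrl and 132, 210.3 and 165 FPKM in WT. It did not pass (adjusted p = 0.0712), and with the replicate block it fell (adjusted p = 0.0300). Slc25a39, named after its values were seen, likewise had an adjusted p of 0.0553, and of 0.00681 with the block. Slc25a37, the other mitoferrin, also named after its values were seen, rose only with the block (adjusted p = 0.0124).

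**Figure D4:**
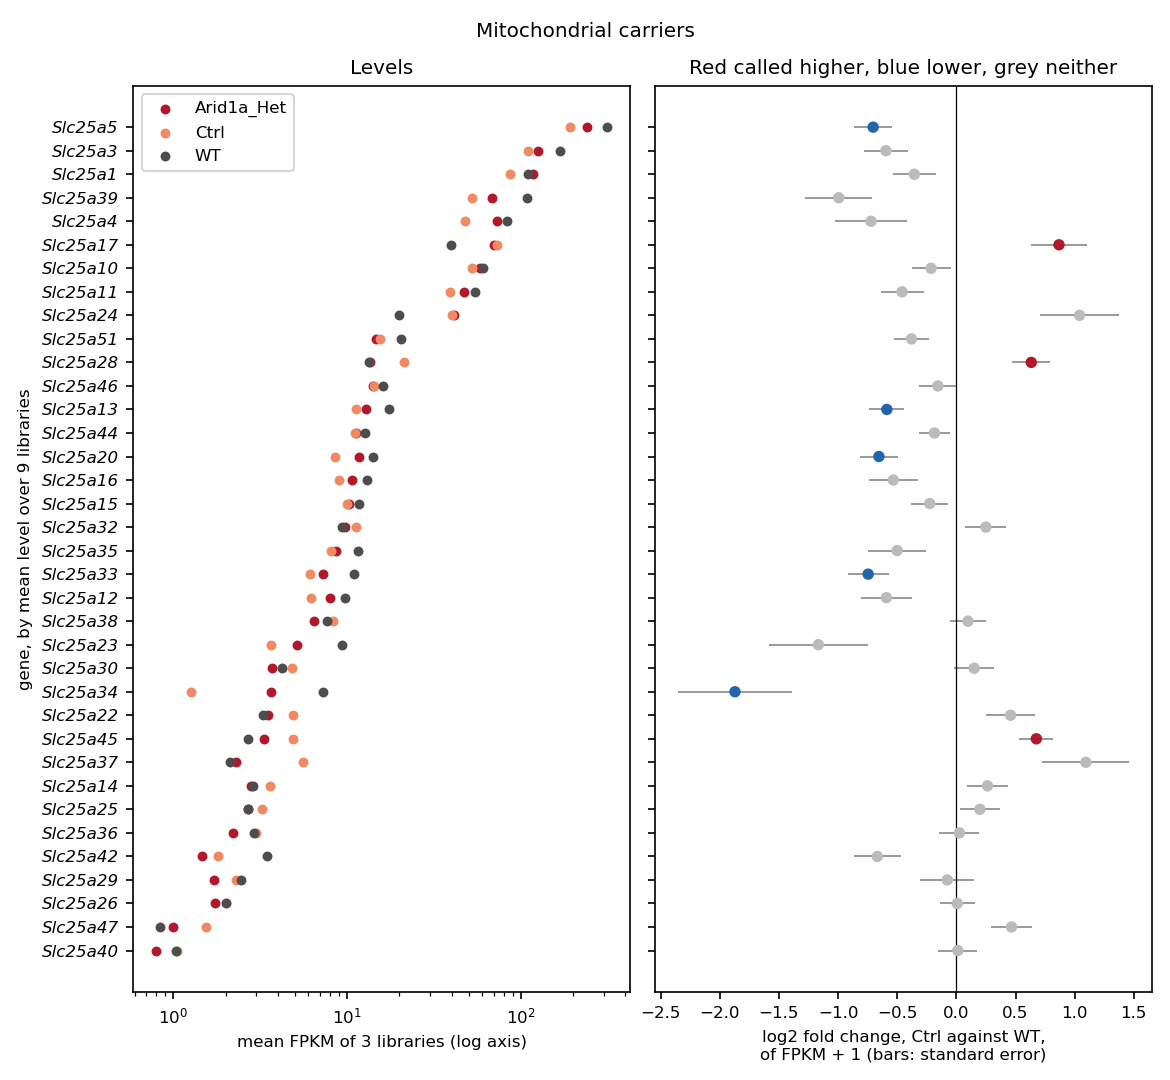
Mitochondrial carriers, 36 of the 37, in order of their mean over the 9 libraries, with mean FPKM per group on a log axis (left) and the log2 fold change of FPKM + 1, Ctrl against WT, with standard errors (right). Red marks the 3 called higher, blue the 5 called lower and grey the rest.

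Carriers of trace metals and magnesium held 2 higher (8.70%) and 1 lower genes (4.35%) among 23. That is close to the 7.01% and 3.04% of all genes tested, and their median was 0.22, beside 0.24. Slc41a1, a magnesium carrier, was at 4.88, 4.17 and 6.95 FPKM in Arid1a_Het, 8.12, 6.36 and 7.07 FPKM in Ctrl and 3.94, 3.21 and 4.34 FPKM in WT. The Ctrl libraries exceeded the WT ones. In Ctrl against WT the log2 fold change was 0.76 (SE 0.20, adjusted p = 0.0404). Leaving out Arid1a_Het 1, Ctrl 1, Ctrl 2, Ctrl 3, WT 1, WT 2 or WT 3 (adjusted p 0.0595 to 0.136) ended the call. Slc41a1 also missed the threshold with no filter on low values, with median-ratio scaling and without the pancreas libraries (adjusted p 0.0514 to 0.105). The 250 bases before its start on the plus strand, at chr1:131827762-131828011 of GRCm38.p6 (RefSeq), hold 1 match to GTGGGAA, in capitals, 243 bases before the start. That motif belongs to RBPJ, the DNA-binding partner of the active Notch fragment. It occurred in 7.51% of the windows of the solute carriers and 5.42% of all windows, in 1 of the 8 called-higher genes and 0 of the 11 called-lower genes with a start in the table.

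Slc41a1: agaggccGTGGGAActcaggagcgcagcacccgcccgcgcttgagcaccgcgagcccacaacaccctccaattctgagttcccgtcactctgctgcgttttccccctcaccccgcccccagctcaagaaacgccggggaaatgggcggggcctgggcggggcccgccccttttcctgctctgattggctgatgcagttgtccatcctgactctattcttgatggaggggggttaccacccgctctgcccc

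Slc41a2, its close relative, went the other way, at 8.48, 6.86 and 3.76 FPKM in Arid1a_Het, 7.31, 4.19 and 3.31 FPKM in Ctrl and 16.97, 10.2 and 12.4 FPKM in WT. Slc41a2 had a Ctrl against WT log2 fold change of -1.29 (SE 0.32, adjusted p = 0.0375). Slc41a2 was no longer called without Ctrl 2, Ctrl 3, WT 1, WT 2 or WT 3 (adjusted p 0.0652 to 0.138). Slc41a2 also missed the threshold with no filter on low values (adjusted p = 0.0742). Slc30a1, the zinc exporter of the plasma membrane, was at 6.02, 5.499 and 7.14 FPKM in Arid1a_Het, 6.47, 7.06 and 9.43 FPKM in Ctrl and 4.32, 4.45 and 4.22 FPKM in WT. Set Ctrl against WT, Slc30a1 changed by a log2 value of 0.68 (SE 0.17, adjusted p = 0.0361). The call was lost without Arid1a_Het 1, Ctrl 1, Ctrl 2, Ctrl 3, WT 1, WT 2 or WT 3 (adjusted p 0.0558 to 0.118). Slc30a1 also missed the threshold with no filter on low values, with median-ratio scaling and without the pancreas libraries (adjusted p 0.0573 to 0.122). It overlaps the antisense gene 1700034H15Rik, also in the table, by 761 bases. The zinc importers Slc39a11, Slc39a4 and Slc39a1 were not called. Slc39a11 was at 124, 127 and 92.6 FPKM in Arid1a_Het, 79.9, 84.8 and 66.1 FPKM in Ctrl and 106, 97.3 and 92.3 FPKM in WT. Slc39a4, known from zinc uptake in the intestine, was at 79.6, 84.2 and 172 FPKM in Arid1a_Het, 79.3, 79.5 and 101.1 FPKM in Ctrl and 53.6, 61.1 and 45.6 FPKM in WT. Slc39a1 was at 42.6, 44.4 and 61.2 FPKM in Arid1a_Het, 41.4, 42.4 and 44.1 FPKM in Ctrl and 32.1, 34.9 and 31.3 FPKM in WT. In Slc39a4 and Slc39a1 the Ctrl libraries were above WT without overlap.

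Fatty acid, bile acid and steroid carriers held 1 higher gene among 7 (14.3%, beside 7.01% of all genes tested). Slc10a2, the sodium-dependent bile acid importer known from the ileum, was at 1.799, 0.511 and 5.46 FPKM in Arid1a_Het, 2.78, 2.34 and 5.14 FPKM in Ctrl and 0.0207, 0.0457 and 0 FPKM in WT. Read counts were 214, 60 and 659 for Arid1a_Het, 262, 287 and 577 for Ctrl, with 2, 5 and 0 for WT, so it was almost undetected in WT. Its Ctrl against WT log2 fold change was 2.06 (SE 0.46, adjusted p = 0.0247). Voom on the reads gave a log2 fold change of 7.40, which for so few WT reads depends on the prior count. Leaving out Ctrl 1, Ctrl 2, Ctrl 3, WT 2 or WT 3 (adjusted p 0.0537 to 0.103) ended the call. Slc10a2 also missed the threshold with no filter on low values (adjusted p = 0.0582). It passed the level filter through Arid1a_Het and Ctrl libraries alone. The 250 bases before its start on the minus strand, at chr8:5105288-5105537 of GRCm38.p6 (RefSeq), hold 1 AP-1 match TGANTCA beginning 118 bases before the start, in capitals. The sequence is set beside that of Slc6a14 because both genes rose and both windows hold this motif. The motif was also present in the window of Slc25a13, which fell.

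Slc10a2: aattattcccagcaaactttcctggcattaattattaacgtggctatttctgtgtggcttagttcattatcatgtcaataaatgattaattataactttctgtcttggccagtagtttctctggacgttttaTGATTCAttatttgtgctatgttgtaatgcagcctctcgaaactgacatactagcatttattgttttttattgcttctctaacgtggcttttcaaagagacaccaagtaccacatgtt

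Over both strands, AP-1 occurred in 4.62% of the 173 windows of the solute carriers and 6.75% of all 32851 windows, and ERR in 1.73% and 4.08%. The CACGTG box occurred in 12.1% of solute carrier windows, including Slc25a13 and Slc25a33, and 6.02% of all. NRF2 (TGACNNNGC) occurred in 16.2% and 10.2%, among called genes in the higher Slc30a1 and the lower Slc25a33, Slc25a5 and Slc41a2. NF-kB occurred in 6.36% and 7.25%, including Slc25a17 and Slc7a7. MTF1 (TGCNCNC) occurred in 90 of the 173 windows and 44.4% of all, in 3 higher genes (Slc30a1, Slc41a1 and Slc6a14) and 6 lower ones.

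The motif of GATA factors, AGATAA, occurred in 6.94% of solute carrier windows and 9.99% of all, including Slc7a7 and Slc25a5. ATF4 (TGATGNAA) occurred in 2.89% and 3.45%, including Slc7a7 and Slco2a1, and TEAD (GGAATG) in 13.9% and 12.6%, including Slc7a7, Slc25a20 and Slc25a5. CREB (TGACGTCA), in 1.16% and 1.55%, and HNF4 (CAAAGTCCA), in 0.0% and 0.384%, matched no called gene. The letters of AP-1, CREB and NRF2 can share bases, and a match describes the letters of a window and no more.

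Carriers of organic ions and drugs held 1 lower gene among 9 (11.1%, beside 3.04% of all genes tested). Slco2a1, which takes up prostaglandins, was at 9.54, 11.7 and 8.099 FPKM in Arid1a_Het, 3.49, 2.83 and 7.55 FPKM in Ctrl and 12.6, 20.2 and 12.5 FPKM in WT. Arid1a_Het libraries were above Ctrl without overlap and, by a small gap, below WT. Against WT, its log2 fold change was -1.57 (SE 0.31, adjusted p = 0.0179) in Ctrl. Slco2a1 was no longer called without Ctrl 1, Ctrl 2 or WT 2 (adjusted p 0.0567 to 0.0635). Slco2a1 also missed the threshold without the pancreas libraries (adjusted p = 0.0611). Slc22a18, the highest of the group, was at 63.1, 81.9 and 72.6 FPKM in Arid1a_Het, 58.04, 47.7 and 49.3 FPKM in Ctrl and 61.1, 74.4 and 53.03 FPKM in WT. It did not pass.

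6 groups had no called gene between Ctrl and WT by limma, and none by voom on the recovered reads. Over the whole family 73 of 175 genes had an unadjusted p below 0.05, beside 3602 of 11209 genes tested. Cation-chloride and calcium exchangers (7 genes) had no member at an unadjusted p below 0.05. There Slc12a2, the sodium-potassium-chloride importer of epithelia, was at 57.6, 88.4 and 67.02 FPKM in Arid1a_Het, 93.1, 71.4 and 74.7 FPKM in Ctrl and 68.1, 81.1 and 94.1 FPKM in WT, and Slc12a7, a potassium-chloride exporter, was at 61.6, 64.1 and 54.5 FPKM in Arid1a_Het, 50.9, 55.6 and 73.99 FPKM in Ctrl and 44.9, 96.97 and 72.3 FPKM in WT, both with overlap. Vitamin, choline and nucleoside carriers (16 genes) had 5 higher and 2 lower at an unadjusted p below 0.05. Slc44a4 was at 96.5, 99.3 and 126 FPKM in Arid1a_Het, 89.1, 86.9 and 116 FPKM in Ctrl and 65.9, 74.7 and 63.6 FPKM in WT (adjusted p = 0.0848). Slc28a3, a concentrative nucleoside importer, was at 0.394, 0.363 and 1.14 FPKM in Arid1a_Het, 3.07, 2.18 and 1.81 FPKM in Ctrl and 1.42, 0.1398 and 0.656 FPKM in WT, and it rose with the replicate block (adjusted p = 0.0392), as did the thiamine carrier Slc19a2 (adjusted p = 0.0222), while Slc44a3, named after its values were seen, fell (adjusted p = 0.0109).

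Genes of Slc35 subfamilies b to g were not counted among Golgi and endoplasmic reticulum carriers and are given below. The Golgi and endoplasmic reticulum carriers counted (9 genes, median 0.37) had 3 higher at an unadjusted p below 0.05. Slc37a1 and Slc37a3, members of the sugar-phosphate carrier family, rose with the block (adjusted p = 0.0182 and 0.0460). Phosphate and vesicular anion carriers (4 genes) had 1. It was Slc20a1, a phosphate importer, at 7.02, 4.63 and 9.703 FPKM in Arid1a_Het, 10.01, 7.91 and 16.3 FPKM in Ctrl and 4.16, 5.03 and 5.54 FPKM in WT, with an adjusted p of 0.0557 and of 0.0125 with the block. The creatine and taurine carriers Slc6a8 and Slc6a6 had 1 higher at that p. The unassigned 5 had 2 higher. Among them Slc2a4rg-ps, named as a pseudogene, was at 2.205, 0.392 and 0.647 FPKM in Arid1a_Het, 4.83, 3.17 and 7.85 FPKM in Ctrl and 1.79, 0.651 and 2.55 FPKM in WT, and it rose with the block (adjusted p = 0.0221).

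Other genes of membrane transport, in lists chosen by pathway, were set beside the family. Between Ctrl and WT none of 11 accessory proteins of transporters, 11 genes of the sodium pump and the WNK kinases, and 7 carbonic anhydrases was called by limma or voom, with 4, 2 and 1 at an unadjusted p below 0.05. With the replicate block, Mpc1 (adjusted p = 0.0403) and Mpc2 (adjusted p = 0.0287), the subunits of the mitochondrial pyruvate carrier, and Car5b (adjusted p = 0.0323), a mitochondrial carbonic anhydrase, fell. Of 19 ABC transporters 3 fell, that is 15.8%, where 7.01% of all genes tested were higher and 3.04% lower. They were Abcb9 (log2 fold change -1.13, adjusted p = 0.0122), Abcb10 (-0.59, adjusted p = 0.0418) and Abcd3 (-0.57, adjusted p = 0.0488). Of 9 metallothioneins and copper pumps, Mt3 alone fell (-1.37, adjusted p = 0.0110), that is 11.1%. A further list held 17 tested genes of Slc35 subfamilies b to g, solute carriers that the symbol pattern does not match. Of these, Slc35e4 (1.20, adjusted p = 0.0399) and Slc35f2 (1.19, adjusted p = 0.0198) rose and Slc35g1 (-0.91, adjusted p = 0.0247) fell. That is 11.8% higher and 5.88% lower. The family's 175 genes lie on 20 chromosomes. Of 12 pairs within 200 kb of each other, 5 held a called gene and in none were both called.

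The second comparison asks what a floxed Arid1a allele adds to the active Notch allele. Between Arid1a_Het and Ctrl no solute carrier passed the test in either direction, beside 0.0% of all genes tested higher and 0.00892% lower, and voom called none. At an unadjusted p below 0.05, 9 were higher and 12 lower, that is 21 of 175 beside 1305 of 11209 genes tested, and the lowest adjusted p was 0.346. The median log2 fold change was -0.05 over the 175 genes and -0.16 over all genes tested.

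The 5 genes of lowest p among the higher ones were Slc7a5, Slc5a5, Slc22a18, Slco2a1 and Slc39a11, whose values stand above. For Slc7a5 the log2 fold change was 0.44 (SE 0.15, adjusted p = 0.397). Slc22a18 had a log2 fold change of 0.48 (SE 0.17, adjusted p = 0.397). For Slco2a1 the log2 fold change was 1.02 (SE 0.31, adjusted p = 0.395). In these 3, every Arid1a_Het library exceeded every Ctrl library, as in the next. Slc39a11 had a log2 fold change of 0.56 (SE 0.17, adjusted p = 0.386). For Slc5a5 the log2 fold change was 0.76 (SE 0.28, adjusted p = 0.397). Arid1a_Het 3 lay within the Ctrl range of Slc5a5, and without it this gene was called higher (adjusted p = 0.0278).

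On the lower side stood, among others, Slc2a4rg-ps, Slc25a28, Slc28a3 and Slc25a45. Slc2a4rg-ps had a log2 fold change of -1.62 (SE 0.40, adjusted p = 0.346). For Slc25a28 the log2 fold change was -0.62 (SE 0.16, adjusted p = 0.352). Slc28a3 had a log2 fold change of -1.05 (SE 0.30, adjusted p = 0.368). All Arid1a_Het libraries of these 3 were below all Ctrl libraries. For Slc25a45 the log2 fold change was -0.45 (SE 0.14, adjusted p = 0.395). Slc5a1, the intestinal sodium/glucose importer, was at 0.221, 0.456 and 1.47 FPKM in Arid1a_Het, 7.59, 3.06 and 0.938 FPKM in Ctrl and 1.55, 0.361 and 0.954 FPKM in WT, with the highest value in Ctrl 1, the library with the most pancreas marker reads.

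The third comparison sets both alleles together against WT. Between Arid1a_Het and WT, 2 of the 175 genes rose and none fell, that is 1.14% higher beside 2.06% of all genes tested, and no lower gene beside 0.687%. At an unadjusted p below 0.05, 17 were higher and 22 lower, that is 39 of 175 beside 1927 of 11209 genes tested, and voom called 2 higher and none lower. The median was -0.07 over the 175 genes and 0.02 over all genes tested. Both risers were amino acid carriers, Slc7a5 and Slc6a14. Slc7a5 had a log2 fold change of 1.22 (SE 0.15, adjusted p = 0.00386). It was called under all 16 settings, with adjusted p of 0.00300 to 0.0422. For Slc6a14 the log2 fold change was 2.42 (SE 0.35, adjusted p = 0.00942). It was lost only when the fit held these 2 groups alone (adjusted p = 0.0523). Both comparisons with WT use the same 3 WT libraries and are not independent of each other.

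**Figure D5:**
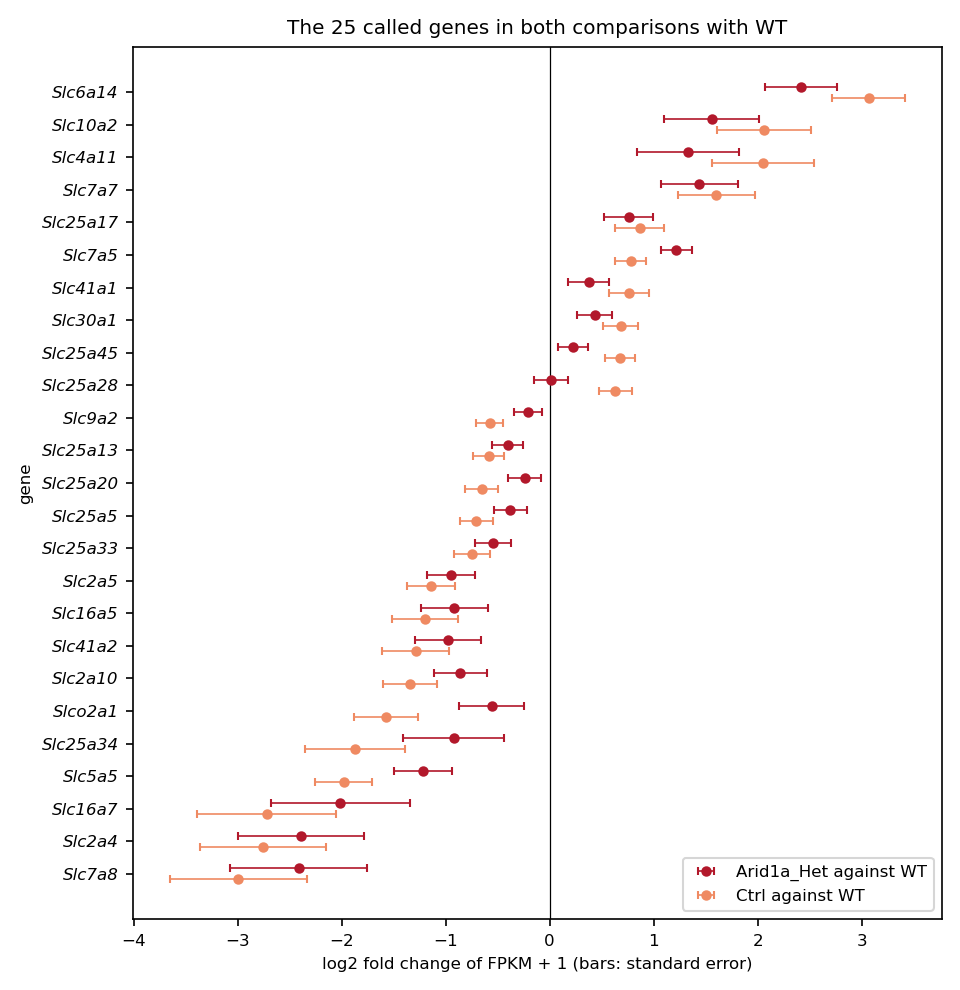
Log2 fold change of FPKM + 1 with standard errors for 25 of the 26 genes called between Ctrl and WT, shown for Arid1a_Het against WT (upper point of each gene) and Ctrl against WT (lower point). Slc6a14 and Slc7a5 are the genes called in both, and both sets share the WT libraries.

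The lower genes of lowest p between Arid1a_Het and WT were Slc7a8, Slc5a5, Slc25a42, Slc2a4 and Slc2a5. Slc5a5 had a log2 fold change of -1.22 (SE 0.28, adjusted p = 0.0517). For Slc7a8 the log2 fold change was -2.41 (SE 0.66, adjusted p = 0.0909). Slc2a4 had a log2 fold change of -2.39 (SE 0.61, adjusted p = 0.0753). For Slc2a5 the log2 fold change was -0.95 (SE 0.23, adjusted p = 0.0682). In all 4 each Arid1a_Het library was below each WT library, by a small gap in Slc7a8 and Slc2a4. Slc25a42, the mitochondrial coenzyme A carrier, was at 1.91, 1.66 and 0.849 FPKM in Arid1a_Het, 1.77, 1.76 and 1.91 FPKM in Ctrl and 2.97, 3.45 and 4.04 FPKM in WT. Slc25a42 had a log2 fold change of -0.88 (SE 0.20, adjusted p = 0.0518). Arid1a_Het libraries overlapped Ctrl and were below WT. Slc27a6, a fatty acid transport protein, was at 3.68, 2.45 and 2.34 FPKM in Arid1a_Het, 1.597, 2.101 and 2.41 FPKM in Ctrl and 1.26, 0.596 and 1.33 FPKM in WT, with Arid1a_Het above WT without overlap (log2 fold change 0.89, adjusted p = 0.0675). In the pathway lists, Stk39, a kinase of the WNK pathway, rose (0.65, adjusted p = 0.0351), and Mt3 fell (-1.29, adjusted p = 0.0237).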

How the data were processed

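RNA was measured by sequencing in 9 libraries of mouse corpus glands, 3 each of Arid1a_Het, Ctrl and WT. Per the labels' protocols the kit keeps strand and selects mRNA. The authors deposited FPKM values for 18423 genes. STAR 2.4.2a and the builds GRCm38 and mm10 are named in the submitters' processing notes, and the counting tool and its use of strand are not given in the sources used here. From the FPKM steps, whole reads were recovered for 100% of values within 0.01 of a whole number, giving 22651385 to 29478481 reads per library. They served for depth, RPM and voom.

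Genes at 1 FPKM or more in at least 3 libraries (11209) were tested with limma 3.58.1 (R 4.3.3) on log2(FPKM + 1), with a mean per group over all 9 libraries, a trended prior and Benjamini-Hochberg adjustment over these genes at 0.05. Fold changes on that scale understate the change of low genes, and p-values are two-sided. The script was tested on simulated data. Tables and figures used Python 3.11.15, numpy 2.4.6, pandas 2.3.3 and matplotlib 3.10.9.

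Genes named were, per comparison and direction, the 12 called with the largest change, or the 5 of lowest p where none was called. Per substrate group they were the 2 of highest level and those of lowest p (3 for Ctrl against WT, 2 for Arid1a_Het against WT, 1 for Arid1a_Het against Ctrl), of which the text gives those its results turn on. To these come the 5 genes on each side of the level limit. The genes, their groups and the pathway and marker lists were chosen with earlier results of these data known. Same-numbered Ctrl and WT libraries deviated together from their group means (correlations 0.207, 0.336 and 0.138). The replicate block was added because of these correlations, so it was chosen from the same data, and no label gives a pairing. Deviations within a group cancel out, so the 3 correlations are not independent. The block was fitted over all 9 libraries, Arid1a_Het included, and raised the calls between Ctrl and WT from 1127 to 2473 over all genes. Genes called only with the block rest on that choice. The labels give no batch. Symbols named at the outset as left out were not analysed here, and some genes that the naming rule gives are counted but not reported here.

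Promoter windows are the 250 bases before each start of the RefSeq-derived table (GRCm38.p6), 173 windows for 128 of the 175 genes. They were searched on both strands for 12 motifs.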

Additional observations from a re-analysis of the deposited data

How the results depend on the processing

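No called solute carrier gene changed direction under the 16 alternative settings. Over all 175 genes, at most 27 changed sign between Ctrl and WT and at most 31 between Arid1a_Het and Ctrl in a setting, and at most 15 between Arid1a_Het and WT. Between Ctrl and WT, the 10 higher and 16 lower genes stood beside 7.01% and 3.04% of all genes tested. With no filter on low values they became 3 and 9 (all genes 3.06% and 1.3%). Median-ratio scaling gave 4 and 21 (5.42% and 5.24%). With only these 2 groups in the fit there were 17 and 17 (9.3% and 3.42%), and with the replicate block 25 and 23 (16.1% and 5.97%). Without the 2 libraries with pancreas markers they became 8 and 7 (4.83% and 1.48%). Voom gave 8 and 13 (5.53% and 2.31%), and a pseudocount of 0.1 gave 11 and 16 (7.08% and 2.89%). Leaving out each library in turn gave 1 to 17 higher and 1 to 19 lower genes, beside 1.94% to 9.46% and 0.384% to 3.61% of all genes. Between Arid1a_Het and Ctrl that gave 0 to 1 higher genes and 0 lower, beside at most 0.0178% and 0.178% of all genes. Between Arid1a_Het and WT, the 2 higher and 0 lower genes became 4 and 1 with a pseudocount of 0.1 (all genes 2.79% and 0.705%). They became 1 and 0 with only these 2 groups (0.794% and 0.143%), and 4 and 8 with the replicate block (3.97% and 2.19%). Leaving out each library there gave 2 to 5 higher and 0 to 6 lower genes, beside 0.714% to 4.71% and 0.0981% to 1.71% of all genes. The cause of these changes was not tested, beyond the fewer libraries or the larger number of genes that a setting itself brings. Same-numbered libraries did not all deviate together between Arid1a_Het and Ctrl (correlations -0.151, 0.467 and -0.020) or between Arid1a_Het and WT (0.252, 0.563 and -0.279). The block left the count of calls between Arid1a_Het and Ctrl at 0 and ended none of the calls in the other comparisons. Genes near 1 FPKM and those with few reads in one group, such as Slc4a11 and Slc10a2 in WT, limit what fold changes can say. Read counts were not corrected for duplicates of one molecule.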
